A study of Mus musculus with 24 samples.

Results

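Antibody genes were read in every library of sorted stem and progenitor cells, and 10 of the 55376 genes in the count tables are described here. They are 6 immunoglobulin heavy chain constant genes (Ighm, Ighd, Ighg3, Ighg2b, Ighg2c and Igha), the kappa light chain constant gene Igkc, and 3 genes of antibody-secreting cells, namely Jchain, Mzb1 and Sdc1. The members were chosen by their symbols, and the choice followed from their counts in these same libraries, which differed widely between replicates of a group. The spread and the isotype balance are therefore given as a description, with no test of their own.

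A B cell builds its antibody from a heavy and a light chain, each with a variable part that differs between clones and a constant part that sets the class. Ighm and Ighd lie closest to the variable segments and are used first, for IgM and IgD, and class switching moves the chosen segment to a downstream constant gene for IgG, IgE or IgA. Plasma cells, the end stage of the B lineage, reside in bone marrow and devote a large part of their mRNA to antibody chains. Hematopoietic stem cells (HSCs) and multipotent progenitors make no antibody of their own, although transcription from an unrearranged heavy chain locus can occur in early progenitors.

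The libraries are bulk mRNA-seq of bone marrow cells from untreated mice, either wild-type (WT) or carrying TTPΔARE, a deletion in Zfp36 of the AU-rich element that destabilises its own mRNA. Zfp36 encodes tristetraprolin (TTP), a protein that promotes decay of mRNAs with such elements. There were 4 libraries each of young WT HSCs (Y-WT HSC), young TTPΔARE HSCs (Y-TTPΔARE HSC), young WT MPP3 cells (Y-WT MPP3) and young TTPΔARE MPP3 cells (Y-TTPΔARE MPP3), and 5 of middle-aged WT HSCs (M-WT HSC) and 3 of middle-aged TTPΔARE HSCs (M-TTPΔARE HSC). According to the study's methods the mutants were homozygous for the germline deletion, so every cell of the mouse carries it, and the controls were WT littermates. HSCs were sorted as lineage-negative Sca-1+ Kit+ cells without CD34 and Flk2 and with CD150, and MPP3 cells, a myeloid-biased multipotent progenitor, by their surface markers. No source used here says that each library came from a separate mouse, so a p-value measures the spread between libraries only.

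Total counts lay between 24261371 and 39934554 per library. Zfp36 did not overlap between the genotypes, at 85.4 to 105.4 CPM (counts relative to library size, scaled by TMM factors over the 24 libraries) in Y-TTPΔARE HSC against 32.5 to 69.2 in Y-WT HSC, at 95.03 to 105.6 in M-TTPΔARE HSC against 41.6 to 60.4 in M-WT HSC, and at 81.7 to 124.5 in Y-TTPΔARE MPP3 against 20.5 to 38.4 in Y-WT MPP3. By edgeR's quasi-likelihood test the difference in Zfp36 passed in middle-aged HSCs (log2 fold change 0.97, adjusted p = 0.0020) and MPP3 cells (1.80, adjusted p = 6.5e-04), and did not in young HSCs (0.96, adjusted p = 0.24), where DESeq2 gave an adjusted p of 0.029. The summed level of 6 MPP3 genes set the labelled cell types apart, at 1820 to 3721 CPM in MPP3 and 115.8 to 403.2 CPM in HSC libraries. That of 6 HSC genes overlapped, at 2223 to 3624 CPM in HSC and 1565 to 2413 CPM in MPP3 libraries. The 1971 olfactory and vomeronasal receptor genes, which have no known role in blood, set some libraries apart, with a sum between 18.8 and 983.1 CPM. The log2 CPM of 9 members (all but Ighd) had a Pearson r of between -0.29 (Ighg2c) and 0.13 (Ighg3) with that sum over the 24 libraries.

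The constant genes of the heavy chain lie side by side on the minus strand of chromosome 12 (GRCm38), from Ighm at 113418558 to 113422730 over Ighd at 113406604 to 113416324, Ighg3 at 113356224 to 113361232, Ighg2b at 113302965 to 113307933 and Ighg2c at 113285325 to 113288932 down to Igha at 113254830 to 113260236. Igkc is a single exon on the plus strand of chromosome 6, from 70726435 to 70726966. Below are the first 60 bases of the first constant exon (CH1, coding, the part of the mRNA to which the variable part is joined) from GENCODE M21 transcripts, which show what a read has to tell apart to be assigned to an isotype. For the IgG genes, capitals mark bases that differ from Ighg2b at the same position:
Ighm (chr12:113422671-113422730, minus strand): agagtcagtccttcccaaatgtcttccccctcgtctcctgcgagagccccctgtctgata
Igha (chr12:113260177-113260236, minus strand): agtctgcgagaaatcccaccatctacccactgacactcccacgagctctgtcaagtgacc
Ighg2b (chr12:113307874-113307933, minus strand): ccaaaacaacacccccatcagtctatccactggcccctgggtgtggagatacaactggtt
Ighg2c (chr12:113288873-113288932, minus strand): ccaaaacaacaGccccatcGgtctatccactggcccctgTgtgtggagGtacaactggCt
Ighg3 (chr12:113361173-113361232, minus strand): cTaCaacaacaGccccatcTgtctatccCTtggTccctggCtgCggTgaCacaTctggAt
Igkc (chr6:70726435-70726494, plus strand): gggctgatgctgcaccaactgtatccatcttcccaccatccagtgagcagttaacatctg

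In these 60 bases Ighg2c differed from Ighg2b at 5 positions and Ighg3 at 13. Over the whole CH1 exon of 291 bases, Ighg2c matched Ighg2b at 87.6% and Ighg3 at 78.7% of positions. Of all 50-base windows in the annotated transcripts, 5.49% of those of Ighg2c, 4.15% of Ighg2b and 1.58% of Ighg3 occur exactly in another heavy chain constant gene, whereas no window of Ighm, Ighd or Igha does. A few counts of an IgG gene in a library with many of another are therefore uncertain, since reads in shared stretches could be split or dropped by the authors' counting. The study's paired reads were longer than these windows, so the shares do not give how many reads were ambiguous.

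Together the 10 members took between 0.351% of all counts (M-TTPΔARE HSC replicate 1) and 6.50% (Y-WT MPP3 replicate 1), with a median of 1.26% over the 24 libraries. Per kilobase of annotated exon Igkc was the most abundant, with a median level of 7378 CPM per kb. Ighm and Igha followed at 1366 and 1328, then Jchain at 565.8. The other members were lower by a wide margin, at 5.81 CPM per kb for Sdc1, 4.30 for Ighg2b, 3.34 for Mzb1, 0.361 for Ighg2c, 0.269 for Ighd and 0.239 for Ighg3. The order of the medians of Ighm and Igha did not hold in each library. By raw counts, not divided by exon length, each led the other in 12 of the 24 libraries.

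Within a group the members were among the most variable genes of the table. Over 13455 genes above an average logCPM of 1.5, the median within-group SD of log2 CPM was 0.15. It was 2.93 for Ighg2b, 2.49 for Ighg3, 2.22 for Ighg2c, 1.84 for Ighm, 1.25 for Mzb1 and Jchain, 1.198 for Igkc, 0.84 for Igha and 0.75 for Sdc1, and between 98.7% and 99.99% of those genes had a smaller SD than each of these members. These values are from the counts that the members were selected on. Ighd was below the logCPM limit.

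**Figure D1:**
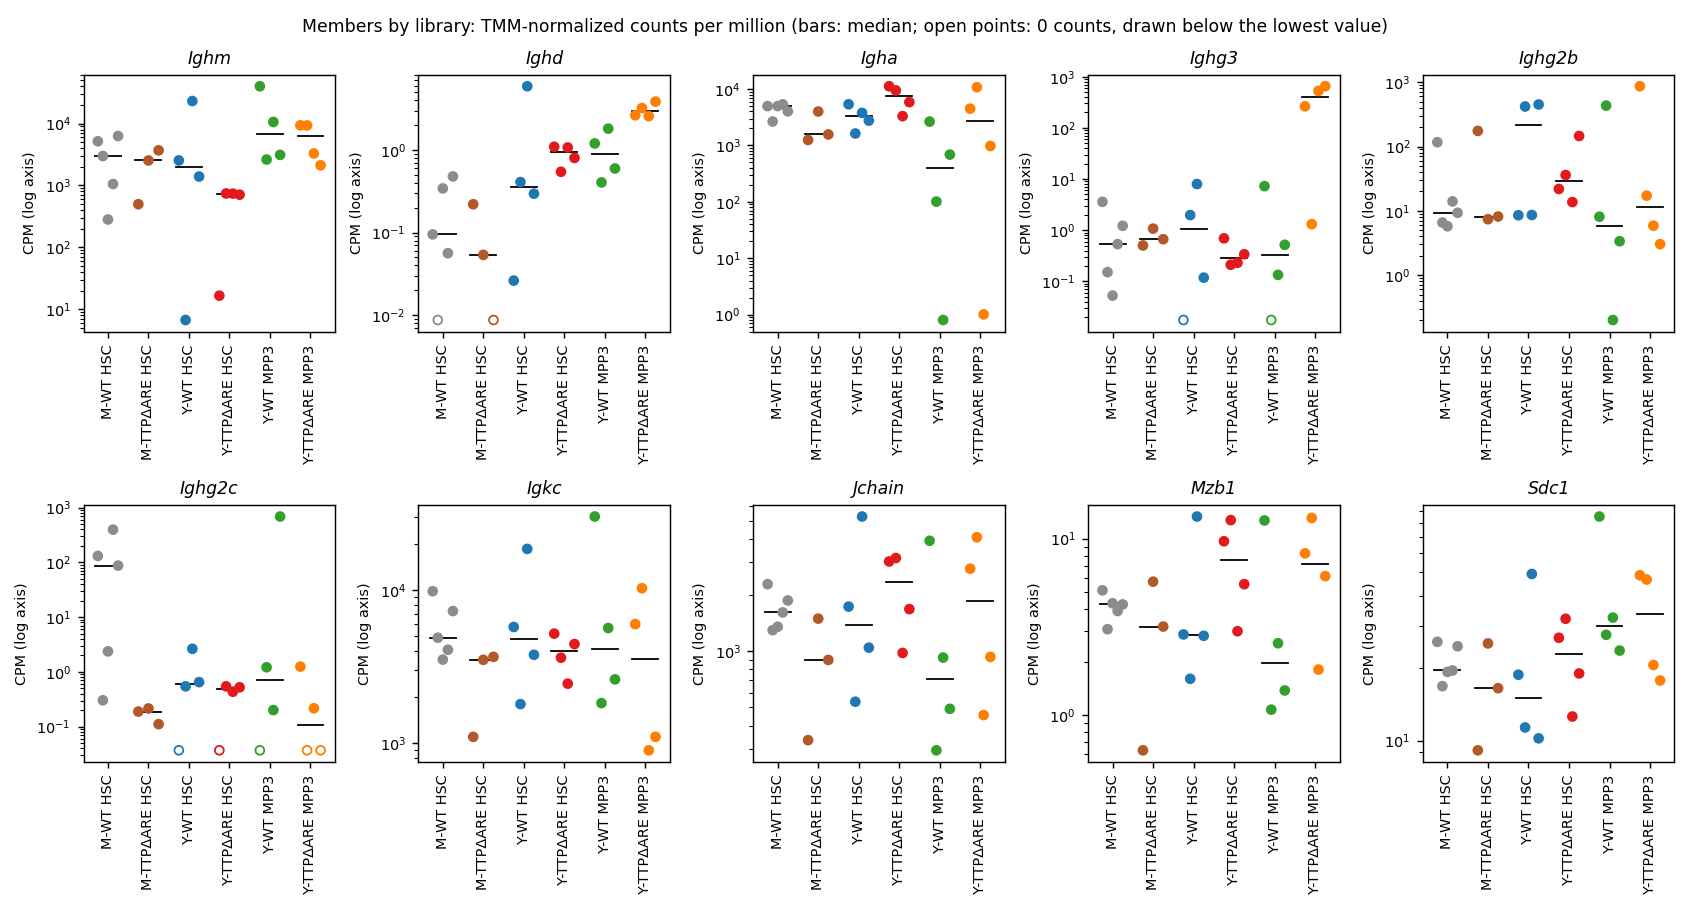
Level of each member in each library, as TMM-normalized CPM on a log axis, by group (points: libraries in order of replicate number, bars: group medians, open points: libraries with 0 counts, drawn below the lowest value). Ighm spans 6.71 to 23080 CPM among the 4 Y-WT HSC libraries, and Ighg3 lies between 264.2 and 652.5 CPM in 3 of the 4 Y-TTPΔARE MPP3 libraries and at most at 7.99 CPM in any other.

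Ighm, the constant gene of IgM, spanned a wide range in every group. Its level in Y-WT HSC replicates 1 to 4 was 2534, 6.71, 23080 and 1393 CPM, and in Y-TTPΔARE HSC 16.6, 741.8, 737.8 and 708.8 CPM. In M-WT HSC it was 5168, 2987, 281.7, 1054 and 6283 CPM, and in M-TTPΔARE HSC 497.5, 2529 and 3689 CPM. Y-TTPΔARE HSC replicates 2 to 4 lay close together, whereas replicate 1 of that group and Y-WT HSC replicate 2 held only 622 and 197 Ighm counts. In MPP3 cells Ighm stood at 40030, 2620, 10600 and 3113 CPM in Y-WT MPP3 and 9346, 9312, 3284 and 2113 CPM in Y-TTPΔARE MPP3. The groups of each genotype pair overlapped.

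Igha, which encodes the constant part of IgA, was high in every HSC library and uneven in MPP3 cells. It stood at 5367, 1629, 3776 and 2758 CPM in Y-WT HSC, and at 11220, 9441, 3310 and 5875 CPM in Y-TTPΔARE HSC. In M-WT HSC it was 4992, 2652, 4987, 5370 and 4025 CPM, and in M-TTPΔARE HSC 1251, 3999 and 1566 CPM. The young mutants thus reached higher and the middle-aged mutants lower than their controls, with an overlap in both. Y-WT MPP3 had 2647, 101.0, 0.804 and 688.9 CPM and Y-TTPΔARE MPP3 4496, 10790, 1.012 and 979.5 CPM, so that in replicate 3 of both genotypes Igha was near absent, at 24 and 28 counts, while Ighm in the same libraries had 316446 and 90913 counts.

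The IgG genes were high in few libraries each, and Ighg3 in 1 group only. Ighg2b had 12298 and 15238 counts in Y-WT HSC replicates 2 and 4, 14963 in Y-WT MPP3 replicate 2 and 26999 in Y-TTPΔARE MPP3 replicate 1, and between 4740 and 5558 in M-WT HSC replicate 1, M-TTPΔARE HSC replicate 1 and Y-TTPΔARE HSC replicate 4. In every other library it had between 6 and 1193 counts. Ighg2c had 14048, 5510 and 3650 counts in M-WT HSC replicates 4, 1 and 5, 26425 in Y-WT MPP3 replicate 4, and at most 90 in any other library. Ighg3 had 8241, 14621 and 15250 counts in Y-TTPΔARE MPP3 replicates 1, 3 and 4, 44 in replicate 2 and at most 215 in any other library. Ighg1, an IgG gene that is not a member, reached 20362 counts in Y-WT MPP3 replicate 1 and no more than 21 elsewhere. A library with many counts of 1 IgG gene mostly had few of the others, except that M-WT HSC replicate 1 held both Ighg2b and Ighg2c and Y-TTPΔARE MPP3 replicate 1 both Ighg2b and Ighg3.

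Ighd, which mature naive B cells use beside Ighm by splicing of the same transcript, was low throughout. It had 159 counts in Y-WT HSC replicate 3 and at most 108 in any other library, and 5 of the 24 libraries were at or under 3 counts. Its level in Y-TTPΔARE MPP3, at 2.63, 3.22, 2.57 and 3.85 CPM, lay above that in Y-WT MPP3, at 1.199, 0.405, 1.81 and 0.596 CPM, without overlap. Where Ighm took 621369 counts, in Y-WT HSC replicate 3, Ighd took 0.0220% of the heavy chain counts.

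The balance of isotypes was taken as the share of each gene in the counts of all 8 heavy chain constant genes of a library, members or not. Ighm and Igha together made up most of it in all libraries. The heavy chain counts of a library numbered between 60452 and 1231024, so that counting error was small: the widest 95% Wilson interval of any heavy or light chain share was 0.375 percentage points to either side. This interval covers counting only, and the reads carry no molecular identifiers.

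In young mutant HSCs Igha predominated in every library. Its share was 99.6%, 92.4%, 81.5% and 87.3% in Y-TTPΔARE HSC replicates 1 to 4, and 67.9%, 79.2%, 14.0% and 59.9% in Y-WT HSC. The lowest mutant library lay just above the highest control by counts, but not per kb of exon, where Y-TTPΔARE HSC replicate 3 had 75.7% and Y-WT HSC replicate 2 had 79.1%, so that the groups overlapped. Ighm took 0.147%, 7.26%, 18.2% and 10.5% in the mutants, where Ighg2b took 0.194% in replicate 1 and 2.17% in replicate 4, whereas in Y-WT HSC it had 32.0%, 0.326%, 85.9% and 30.3%, and Ighg2b had 20.3% in replicate 2 and 9.78% in replicate 4. As a mean, Igha took 90.2% ± 7.72 (SD, n = 4) of heavy chain counts in Y-TTPΔARE HSC and 55.2% ± 28.6 (SD, n = 4) in Y-WT HSC, a value that rests partly on Y-WT HSC replicate 3.

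Middle-aged HSCs had no such order. Igha took 48.0%, 47.0%, 94.5%, 78.6% and 38.7% in M-WT HSC and 65.0%, 61.2% and 29.7% in M-TTPΔARE HSC, so that the groups overlapped and M-TTPΔARE HSC replicate 3 was the lowest library. Ighg2c took 5.78%, 1.26% and 0.838% in M-WT HSC replicates 4, 1 and 5 and at most 0.0449% in the other libraries of this age. M-TTPΔARE HSC replicate 1 differed from the rest by an Ighg2b share of 9.08%.

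In MPP3 cells Ighm led in every library but Y-TTPΔARE MPP3 replicate 2, where Igha did. It took 92.2%, 83.0%, 99.97% and 69.3% of heavy chain counts in Y-WT MPP3, and 62.4%, 46.3%, 85.9% and 56.3% in Y-TTPΔARE MPP3. Igha was lower than in HSCs of the same genotype in the young WT, at 6.10%, 3.20%, 0.00758% and 15.3%, with a single HSC library (replicate 3) in that range. In Y-TTPΔARE MPP3 it took 30.0%, 53.6%, 0.0265% and 26.1%. The IgG share in WT came from another gene in each library, namely Ighg1 at 1.65% in replicate 1, Ighg2b at 13.7% in replicate 2 and Ighg2c at 15.3% in replicate 4. In the mutants it came mostly from Ighg3 in replicates 3 and 4, at 13.8% and 17.4%. In replicate 1 Ighg2b took 5.78% and Ighg3 1.76%, and in replicate 2 they had only 578 and 44 counts.

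**Figure D2:**
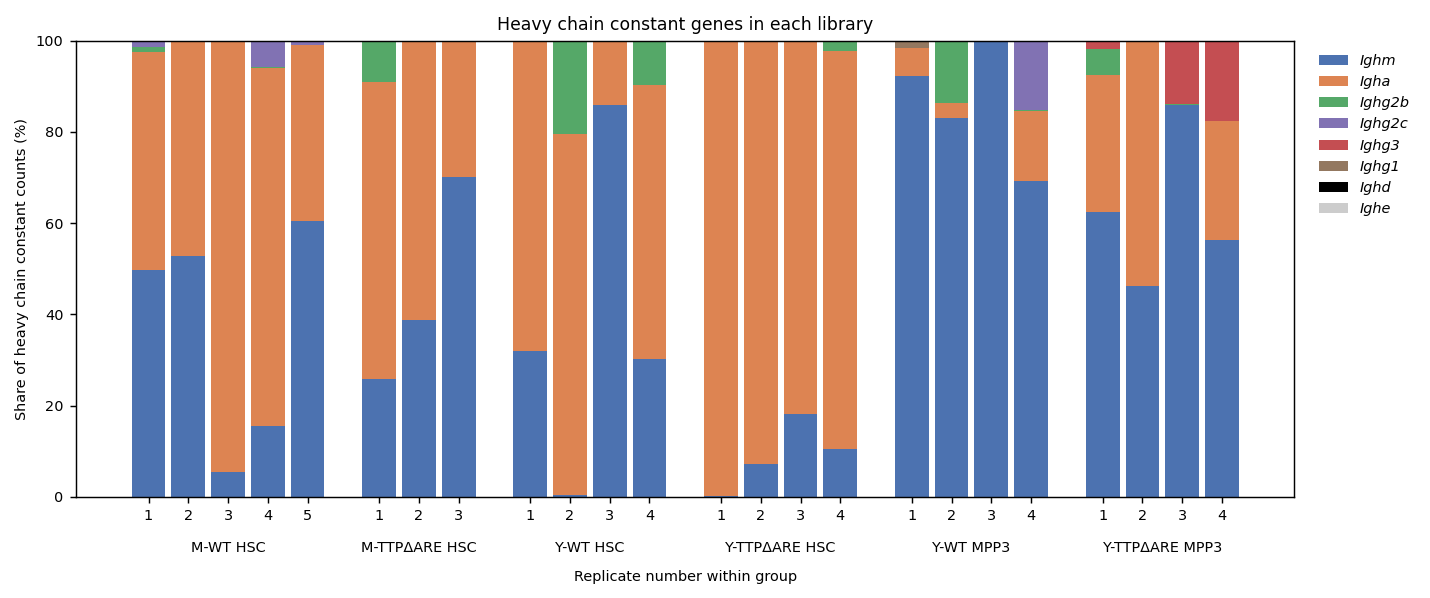
Share of each of the 8 heavy chain constant genes in their summed counts (vertical axis, percent), for each library, by group and replicate number. Igha takes at least 81.5% in the 4 Y-TTPΔARE HSC libraries and at most 15.3% in the 4 Y-WT MPP3 libraries, and Ighg3 takes 1.76% to 17.4% in 3 of the 4 Y-TTPΔARE MPP3 libraries.

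Igkc encodes the constant part of the kappa light chain, which most mouse B cells use in place of lambda. Its level in HSCs was 5737, 1797, 18600 and 3776 CPM in Y-WT, 5191, 3615, 2444 and 4438 CPM in Y-TTPΔARE, 9836, 4883, 3512, 4074 and 7292 CPM in M-WT and 1097, 3501 and 3660 CPM in M-TTPΔARE. In MPP3 cells it was 30280, 1824, 5650 and 2607 CPM in WT and 5994, 10290, 896.1 and 1098 CPM in TTPΔARE. As for Ighm, Y-WT MPP3 replicate 1 and Y-WT HSC replicate 3 were far above their groups. Other libraries differed from Ighm: Y-TTPΔARE HSC replicate 1 had the most Igkc of its group and the least Ighm. Counts of all light chain genes stood at between 0.599 and 1.19 per count of all heavy chain genes, a much narrower range than that of any constant gene.

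The share of Igkc among light chain counts, the remainder being the lambda genes Iglc1 to Iglc4, was lower in both young mutant groups than in their controls. In Y-TTPΔARE HSC it was 54.7%, 29.7%, 71.99% and 78.6%, and in Y-WT HSC 99.1%, 79.3%, 88.7% and 98.8%. In Y-TTPΔARE MPP3 it was 49.6%, 66.0%, 35.8% and 26.1%, and in Y-WT MPP3 93.6%, 92.4%, 77.5% and 96.9%. Neither pair of groups overlapped, although Y-TTPΔARE HSC replicate 4 and Y-WT HSC replicate 2 were almost level, and per kb of exon at 76.62% and 76.63%. In middle-aged HSCs the groups overlapped, at 98.7%, 96.6%, 78.3%, 73.2% and 94.7% in M-WT and 87.4%, 76.9% and 98.9% in M-TTPΔARE.

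The leading lambda gene was not the same in each library. Iglc1 took 44.6% and 68.7% of light chain counts in Y-TTPΔARE HSC replicates 1 and 2, and 28.5% and 27.5% in Y-TTPΔARE MPP3 replicates 1 and 2. Iglc2 took 54.9% in Y-TTPΔARE MPP3 replicate 3, and Iglc3 58.7% in replicate 4. Iglc2 and Iglc3 share 7.65% and 10.7% of their 50-base windows with another lambda gene. Some of their counts may be exchanged, though the reads were longer than these windows and the number was not measured. No test was made of these shares, which belong to the counts from which the members were chosen.

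**Figure D3:**
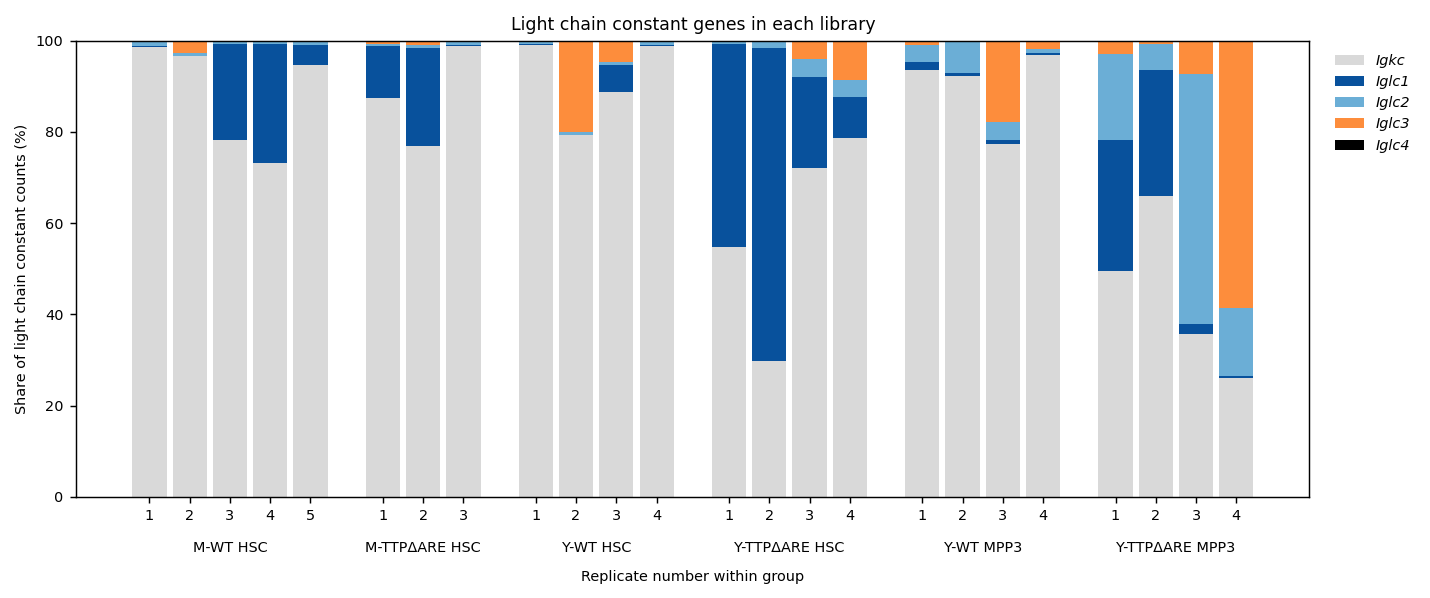
Share of Igkc and of the 4 lambda constant genes in the counts of all light chain constant genes (vertical axis, percent), for each library, by group and replicate number. Igkc lies between 26.1% and 78.6% in the 8 young TTPΔARE libraries and between 77.5% and 99.1% in the 8 young WT libraries, and the predominant lambda gene changes from library to library.

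The variable segments also differed between libraries. The most counted heavy chain variable segment took between 10.8% and 56.3% of all heavy chain variable counts of a library (median 27.1%), and 14 different segments led in the 24 libraries. For kappa the range was 13.2% to 69.7%, with 15 different leading segments.

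Jchain encodes the chain that joins IgM pentamers and IgA dimers, and is made by plasma cells of any class. It stood at 1734, 536.4, 5267 and 1045 CPM in Y-WT HSC, and at 3026, 3157, 979.0 and 1681 CPM in Y-TTPΔARE HSC. In M-WT HSC it was 2288, 1296, 1353, 1614 and 1870 CPM, and in M-TTPΔARE HSC 333.9, 1495 and 898.2 CPM. In MPP3 cells it was 3906, 294.6, 924.8 and 491.4 CPM in WT and 2767, 4078, 454.9 and 932.6 CPM in TTPΔARE. It had no fewer than 10195 counts in any library, against lowest values of 197 for Ighm and 24 for Igha, and all pairs of groups overlapped. Per 100 counts of Ighm and Igha there were between 8.72 and 12.9 counts of Jchain in Y-WT MPP3, and between 17.1 and 32.8 in the 16 HSC libraries, without overlap. The ratio was 20.0, 20.3, 13.8 and 30.2 in Y-TTPΔARE MPP3, all above Y-WT MPP3.

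Mzb1, a chaperone of the endoplasmic reticulum that assists antibody assembly and secretion, was low, at 20 to 439 counts per library. Its highest levels were 13.3 CPM in Y-WT HSC replicate 3, 13.1 CPM in Y-TTPΔARE MPP3 replicate 2, 12.7 CPM in Y-TTPΔARE HSC replicate 2 and 12.7 CPM in Y-WT MPP3 replicate 1, the libraries with the most Jchain in their groups. Between 1.65 and 6.56 counts of Mzb1 came with 1000 counts of Jchain. Sdc1, the surface proteoglycan CD138 by which plasma cells are recognised, lay between 9.12 and 49.1 CPM in HSC and between 17.8 and 85.1 CPM in MPP3 libraries. It is also used by other cell types and varied least of the 9 members above the logCPM limit. Its ratio to Jchain ran from 8.83 counts per 1000 of Jchain in Y-TTPΔARE HSC replicate 1 to 93.3 in Y-WT MPP3 replicate 2.

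The study asked what raised TTP does to the hematopoietic system, through blood and marrow composition, transplants, an arthritis model and the transcripts of these progenitors. For the transcripts, each member was compared between TTPΔARE and WT by edgeR's quasi-likelihood F test on all genes with enough counts. A gene was called where its Benjamini-Hochberg adjusted p over all genes was under 0.05, its level differed by more than 1.2-fold and its mean logCPM exceeded 1.5. By this rule 0 members were called in each of the 3 comparisons. In bulk samples, fewer cells of a type and less RNA per cell cannot be told apart.

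In young HSCs all 10 members were tested and 0 were called, where 0.0246% of the 24381 genes tested were called. With p left unadjusted, Igha and Ighm passed the same limits, 2 of 10, beside 4.36% of all genes. DESeq2 called 0 of the 9 members it gave an adjusted p for, and 1.6% of all genes. Igha had a log2 fold change of 1.11 (SE 0.41, adjusted p = 0.54) and Ighm of -3.70 (SE 1.65, adjusted p = 0.67). Those of Igkc and Jchain were -0.98 (SE 0.59, adjusted p = 0.72) and -5.8e-04 (SE 0.62, adjusted p = 0.9999). Without Y-WT HSC replicate 3 the value of Ighm was -1.29, that of Igkc 0.055 and that of Jchain 1.001. No member's CPM ranges were free of overlap, where 6.01% of all genes had groups that did not overlap.

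In middle-aged HSCs 9 members were tested, Ighd having too few counts, and 0 were called by edgeR, where 1.41% of 21136 genes were. Unadjusted, Igha, Ighg2c, Igkc and Jchain passed, 4 of 9, beside 7.04% of all genes, each with a lower value in the mutants. Their log2 fold changes were -1.004 (SE 0.34, adjusted p = 0.18) for Igha, -1.15 (SE 0.42, adjusted p = 0.21) for Igkc and -0.94 (SE 0.37, adjusted p = 0.25) for Jchain, and that of Ighm was -0.55 (SE 0.83, adjusted p = 0.78). Ighg2c had the largest, at -9.49 (SE 2.29, adjusted p = 0.068), with 12 to 14048 counts in the controls and 4 to 8 in the mutants. It passed the filter on low counts, with its minimum of 10, through the controls alone. The size of its fold change therefore rests on mutant values near the floor. Its further calls and lack of overlap come from the same counts and are no independent support. Ighg2c was the 1 member that DESeq2 called among 8, beside 4.34% of all genes, and the 1 of 9 whose groups did not overlap, beside 11.6% of all genes. The 2 control libraries with the fewest Ighg2c counts had 0.303 and 2.37 CPM against 0.111 to 0.215 CPM in the mutants. Without M-WT HSC replicate 2 or replicate 3, edgeR called Ighg2c (adjusted p = 0.022 and 0.045), beside 1.43% and 1.17% of all genes. Without M-TTPΔARE HSC replicate 2 it called Igha (log2 fold change -1.69, adjusted p = 0.022), beside 0.603%. With no filter on low counts it called Igha, Ighg2c, Igkc and Jchain, 4 of 10 members, beside 1.85% of 45582 genes.

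The study left a Y-TTPΔARE MPP3 library out of its own comparison without naming it. All 4 enter here, and the call of Ighg3 depends on which is left out. In young MPP3 cells 9 members were tested, Ighg2c not passing the filter on low counts, and 0 were called by edgeR, beside 1.71% of 19023 genes. Ighg3 alone passed unadjusted with the limits, 1 of 9, beside 9.95% of all genes, and it was also the 1 member of 8 that DESeq2 called (4.11% of all genes). Its log2 fold change was 7.50 (SE 1.81, adjusted p = 0.081 by edgeR, 0.0026 by DESeq2). Ighg3 had 44 to 15250 counts in the mutants and 0 to 206 in the controls. The controls alone would not have passed the filter on low counts, so its test rests on the group where it is high. The groups overlapped through Y-TTPΔARE MPP3 replicate 2, at 1.31 CPM beside up to 7.27 CPM in Y-WT MPP3, and without that replicate edgeR called Ighg3 (log2 fold change 7.92, adjusted p = 0.026), beside 1.22% of all genes. It was called as well without Y-WT MPP3 replicate 1 (10.45, adjusted p = 0.045), beside 1.24%. With no filter on low counts Ighg3 and Ighg2c were called, 2 of 10, beside 1.06% of 44175 genes. Ighd was the 1 of 9 members whose groups did not overlap, beside 9.96% of all genes, with a log2 fold change of 1.60 (SE 0.45, adjusted p = 0.14) and an average level under the logCPM limit. The values of Ighm, Igkc, Igha and Jchain were -1.15, -1.05, 2.31 and 0.62 (SE 0.83, 0.99, 1.96 and 0.84, adjusted p between 0.61 and 0.81). Ighm and Igkc were at 0.16 and 0.46 without Y-WT MPP3 replicate 1.

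**Figure D4:**
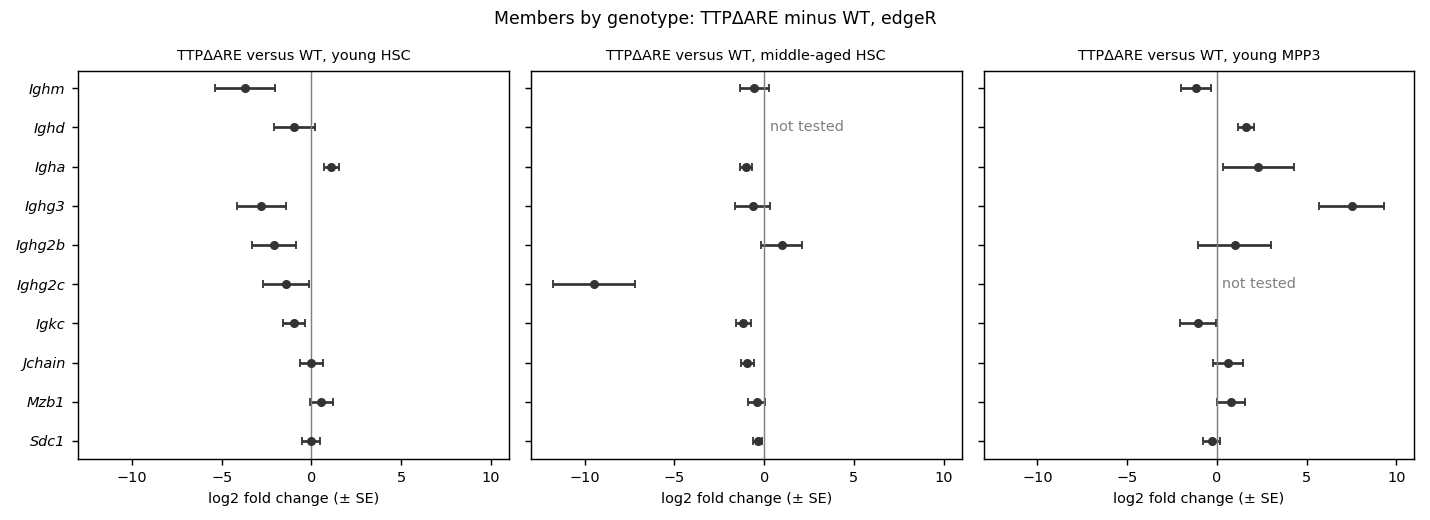
Log2 fold change of each member between TTPΔARE and WT in the 3 comparisons (points: edgeR estimate, bars: 1 SE, positive values: higher in TTPΔARE). Ighg2c in middle-aged HSCs (-9.49) and Ighg3 in young MPP3 cells (7.50) lie farthest from 0, and no member passed the adjusted p limit of 0.05.

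Whether a genotype effect differed by age or by cell type was tested as an interaction term. Between the ages of HSCs 0 of 10 members passed an adjusted p under 0.05 by edgeR, beside 0.0213% of 28189 genes. Unadjusted, Igha (log2 difference of the effects -2.17, SE 0.61, adjusted p = 0.22) and Ighg2c (-8.16, SE 2.60, adjusted p = 0.26) were under 0.05, 2 of 10, beside 15.0% of all genes. The opposite direction of Igha at the 2 ages therefore did not pass the correction. DESeq2 passed Ighg2c, 1 of 10, beside 0.971% of all genes. Between HSCs and MPP3 cells of young mice edgeR passed 0 of 10, beside 0.486% of 26337 genes. Ighg2c and Ighg3 were under 0.05 unadjusted, 2 of 10, beside 10.7% of all genes, and Ighg3 (10.09, SE 2.34, adjusted p = 0.076) was passed by DESeq2, 1 of 8, beside 1.61%. By edgeR it passed without Y-WT MPP3 replicate 1 (0.423% of all genes) or without Y-TTPΔARE MPP3 replicate 2 (0.534%). Log2 fold changes of Ighg2c, Ighg3 and Ighd were chosen for print after their values were seen.

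Genes whose level followed a member over the 24 libraries were taken by Pearson's r of log2 CPM among the 13455 genes above the logCPM limit, segment genes excluded. These correlations are descriptions, since all genes were read in the same libraries and share their depth and groups. Jchain was followed by St6gal1 (r = 0.942), Mzb1 (0.941), Cd79a (0.938), Xbp1 (0.911) and Derl3 (0.901), of which St6gal1 is a sialyltransferase, Cd79a a signalling chain of the B cell receptor, Xbp1 the transcription factor of the secretory programme and Derl3 a factor of protein degradation from the endoplasmic reticulum. Mzb1 had the same genes, with Cd79a (0.957), Derl3 (0.956) and Jchain first, then Xbp1 (0.868) and St6gal1 (0.840). Sdc1 was followed by Edem1 (0.944), Txndc11, Pdia4, Gm5547 and Txndc5 (0.848), most of which act in protein folding or quality control. Igkc was followed by Pou2af1 (0.904), a coactivator of immunoglobulin transcription, Gm31834, Txndc5, Cmah and Gm30211 (0.845).

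For the heavy chain genes the likeness was weaker. Ighm had Slpi (0.727), Chst1, Zfp276, Trim24 and Sec63 (0.677), and Igha had Zfp69 (0.793), BC065397, Socs1, Bag3 and Prmt2 (0.784). Within the 16 HSC libraries the values of the Igha genes were lower, between 0.215 and 0.492. Among the members, Jchain and Mzb1 (0.941), Igkc and Jchain (0.831), and Igkc and Sdc1 (0.719) went together most, and Ighm and Igha did not (-0.20).

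**Figure D5:**
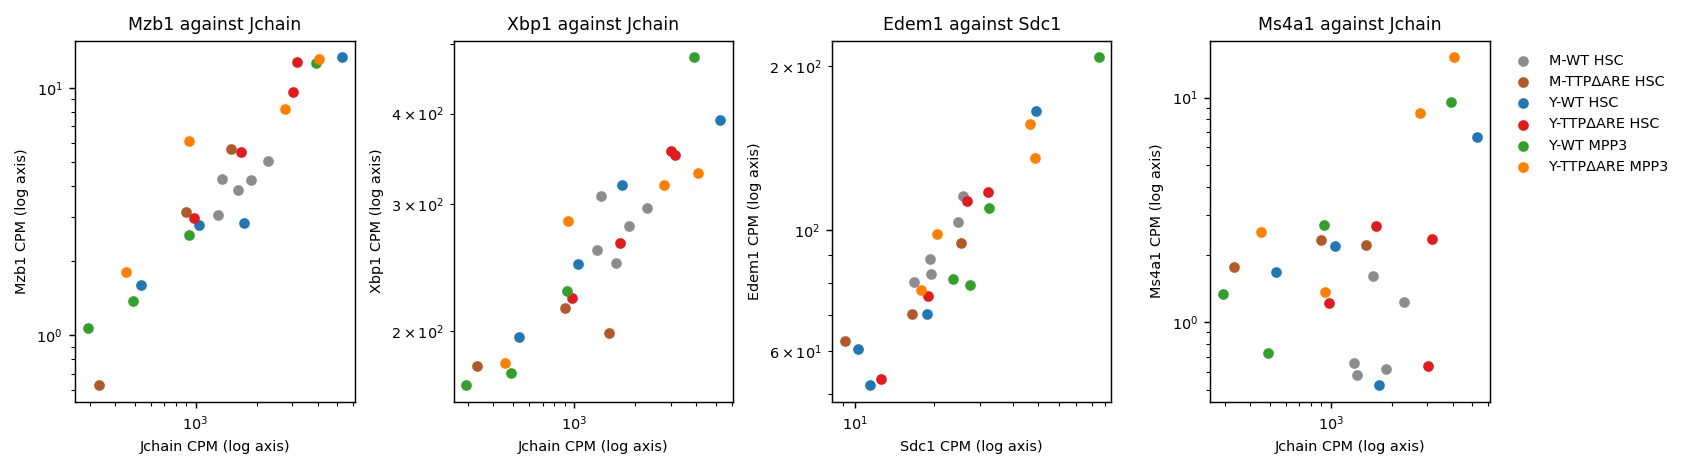
Level of Mzb1 and Xbp1 against Jchain, of Edem1 against Sdc1 and of Ms4a1 against Jchain, as CPM on log axes (points: libraries, coloured by group). Mzb1, Xbp1 and Edem1 follow the member over the libraries (Pearson's r 0.941, 0.911 and 0.944 on log2 CPM). Ms4a1, a surface marker of B cells before the plasma cell stage, lies between 0.524 and 15.1 CPM with r = 0.407. It is 1 of 13 mature B cell genes, of which 3 had an r over 0.5 with Jchain, the highest being Cd79a (0.938, not drawn).

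Markers of the cells that use these genes were measured beside them. Of 10 plasma cell identity genes 9 had an r over 0.5 with Jchain (median 0.792), among them Pou2af1 (0.890), Tnfrsf17 (0.845), which encodes the survival receptor BCMA, Irf4 (0.795) and Prdm1 (0.789), the last 2 transcription factors of the plasma cell fate. Their summed level lay between 503.6 and 1534 CPM, mostly from Xbp1 (168.3 to 478.8), Txndc5 (165.7 to 651.9) and Tnfrsf13b (79.8 to 141.0). Of 14 genes of the secretory machinery, which every cell needs to a degree, 4 had an r over 0.5 (median 0.347), with Hspa5, Hsp90b1 and Pdia6 the most counted. Of 13 mature B cell genes 3 did (Cd79a, Blnk and Blk, median 0.406). Pax5, the factor that holds B cell identity and is shut off in plasma cells, lay between 0 and 1.84 CPM, and Ms4a1 between 0.524 and 15.1. The part of any of these cell types in the members' counts was not tested.

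Between genotypes, 1 of 10 plasma cell identity genes was called, Xbp1 in middle-aged HSCs, at 178.9, 199.0 and 215.3 CPM in M-TTPΔARE and 248.5 to 307.2 CPM in M-WT (log2 fold change -0.54, SE 0.09, edgeR adjusted p = 0.016). The median log2 fold change of the list was -0.17 there, beside 0.01 for all genes, -0.06 in young HSCs beside -0.07, and -0.09 in MPP3 cells beside 0.04. None of the 14 secretory genes was called in any comparison, with medians of 0.13, -0.19 and 0.37. Among mature B cell genes Cd22, a receptor that dampens B cell signalling, was called higher in MPP3 cells, at 4.05 to 7.02 CPM in Y-TTPΔARE and 0.564 to 0.982 CPM in Y-WT (log2 fold change 2.69, adjusted p = 0.0014), and the list's median there was 1.28. Of 7 genes of earlier B cell stages, 6 of them tested there, Rag2 was called higher in MPP3 cells (1.25, adjusted p = 0.039), and of the other constant genes, of which 3 or 4 were tested in a comparison, none was called.

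Marker lists of other cells were also compared between the genotypes. Some sums did not overlap, where 6.01% of single genes in young and 11.6% in middle-aged HSCs did not overlap either. The summed level of 6 T and NK cell genes was 109.9 to 194.3 CPM in Y-TTPΔARE HSC and 76.1 to 92.0 CPM in Y-WT HSC. Most of it came from Nkg7 and Lck, at 28.8 to 45.3 and 16.2 to 24.1 CPM in Y-WT HSC. In young HSCs 0 of these 6 genes were called, and in middle-aged HSCs and MPP3 cells the sum overlapped between the genotypes. Lck was called higher in Y-TTPΔARE MPP3 (0.76, adjusted p = 0.0080). In Y-WT MPP3 Nkg7 and Lck stood at 190.5 to 309.0 and 30.0 to 37.6 CPM. Cd3d, Cd3e and Cd3g were at most at 0.116, 0.637 and 0.776 CPM there, so these levels of Nkg7 and Lck came without the Cd3 genes. Of 4 erythroid genes Hbb-bs was called higher in Y-TTPΔARE MPP3 (3.14, adjusted p = 0.042), and of 5 neutrophil genes none was called. The erythroid sum was 13.9 to 51.8 CPM in Y-TTPΔARE HSC and 4.56 to 7.15 CPM in Y-WT HSC, with 0 genes called there. The neutrophil sum was 2.58 to 3.80 CPM in M-TTPΔARE HSC and 4.81 to 11.3 CPM in M-WT HSC. Among the MPP3 markers Elane and Fcgr3 were called higher in Y-TTPΔARE MPP3 (2.53 and 1.99) and Cd34 lower in M-TTPΔARE HSC (-0.74), and among the HSC markers Procr was called higher in M-TTPΔARE HSC (0.38). Whether these levels have a part in the values of the members was not tested.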

How the data were processed

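Bulk mRNA-seq libraries of HSCs and MPP3 cells were grouped by age, genotype and cell type from their labels. Per the study's methods, adapters were removed by Trim Galore! (Cutadapt), and the authors used STAR for alignment to mm10 and deposited raw counts per gene from featureCounts, with a GENCODE M22 index. Whether reads were counted by strand and how reads with several matches were treated is not given in the sources used here, and the labels and the methods name different library kits.

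The 10 members and the marker lists were chosen with earlier results of these data known. Levels are CPM with TMM factors over the 24 libraries, and levels between genes are CPM per kb of GENCODE M21 exon. Genotypes were compared on all genes kept by filterByExpr (minimum count 10, minimum total 15) with the quasi-likelihood F test of edgeR 4.0.16 (R 4.3.3, limma 3.58.1) and Benjamini-Hochberg adjustment, in the 2 groups compared, and interactions by a term in 1 fit. Adjusted p-values in the text are from edgeR unless DESeq2 1.42.0 is named. The fit was tested on simulated data. Log2 fold changes are given for the 4 members with the most counts and any other called, and likeness for the 5 genes with the highest r (log2 CPM, prior count 2). Alternatives were DESeq2, the likelihood ratio test, RLE factors, no filter, a replicate block, 1 fit of 24 libraries, removal of segment genes, and leaving out single libraries. Isotype shares have 95% Wilson intervals and no test.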

Additional observations from a re-analysis of the deposited data

Results flagged for a closer look

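In 13 of 50 combinations of a member and a group of 4 or 5 libraries, 1 library stood apart from the rest by Dixon's ratio. The limit used is passed by chance in about 5% of groups if values are normally distributed. The ratio was taken on CPM, not on log2 CPM, and CPM were not shown to be so distributed. The combinations share libraries and the members were chosen for such differences, so the number is a description. M-TTPΔARE HSC, with 3 libraries, was not examined.

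Of these, 4 were in Y-WT MPP3 replicate 1, with Igkc at 30280 CPM (next library 5650), Sdc1 at 85.1 CPM (next 32.4), Mzb1 at 12.7 CPM (next 2.55) and Ighg3 at 7.27 CPM (next 0.518). Y-WT HSC replicate 3 had 3, with Ighm at 23080 CPM (next 2534), Mzb1 at 13.3 CPM (next 2.86) and Ighd at 5.91 CPM (next 0.408). Ighg2b was high in 1 library of each of 4 groups, at 116.7 CPM in M-WT HSC replicate 1 (next 14.0), 145.9 CPM in Y-TTPΔARE HSC replicate 4 (next 36.0), 432.3 CPM in Y-WT MPP3 replicate 2 (next 8.11) and 865.5 CPM in Y-TTPΔARE MPP3 replicate 1 (next 17.2). Ighg2c stood at 685.1 CPM in Y-WT MPP3 replicate 4 (next 1.21). The 1 low value was Ighm at 16.6 CPM in Y-TTPΔARE HSC replicate 1, where the next lowest library had 708.8 CPM.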

How the results depend on the processing

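The count of members called was 0 in young HSCs under every alternative run. In middle-aged HSCs it was 1 with DESeq2, the likelihood ratio test or segment genes left out (Ighg2c each time), 4 with no filter on low counts, and 0 to 1 with a library left out. In MPP3 cells it was 1 with DESeq2, the likelihood ratio test or the replicate block (Ighg3), 2 with no filter or in 1 fit of 24 libraries (Ighg2c and Ighg3), and 0 to 1 with a library left out. The interaction with age had 1 with DESeq2, and that with cell type 1 with DESeq2, the likelihood ratio test or no filter, and 0 to 1 with a library left out. The log2 fold change of Jchain in young HSCs, near 0, turned positive with DESeq2 (0.019), RLE factors (0.010), no filter (0.093), the replicate block (0.48), 24 libraries (0.043) and segment genes left out (0.030), and ran from -0.32 to 1.00 with a library left out. With a library left out Igkc ran from -1.30 to 0.055 in young HSCs and from -1.87 to 0.46 in MPP3 cells, and Ighm from -1.48 to 0.16 in MPP3 cells. The causes were not tested. All 36 values of the isotype balance per kb or without Ighd moved by less than 1 SD of their group, although the Igha shares of the young HSC groups overlapped per kb. For the 72 values with a library left out this limit cannot decide, since dropping 1 library cannot move a group mean by 1 SD. The mean Ighm share then ran from 20.9% to 49.4% in Y-WT HSC and from 5.98% to 12.0% in Y-TTPΔARE HSC. That of Igha ran from 47.3% to 69.0% and from 87.0% to 93.1%.

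Deviations of same-numbered libraries correlated between -0.21 and 0.29 in young HSCs, -0.11 and 0.09 in middle-aged HSCs and -0.20 and 0.38 in MPP3 cells. These values were not set against differently numbered libraries, so they cannot decide whether replicate numbers pair the libraries. With the replicate block, calls over all genes went from 6 to 5, 298 to 108 and 326 to 243. Calls over all genes were 316, 838 and 734 with DESeq2, 146, 287 and 540 with the likelihood ratio test, 73, 842 and 470 with no filter, and 18, 53 and 1244 in 1 fit of 24 libraries. For the interactions they went from 6 and 128 to 272 and 417 with DESeq2 and to 73 and 264 with the likelihood ratio test, and that with age to 16 with no filter and 4 with RLE factors.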
